A study of Mus musculus with 9 samples.

Results

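The 10 genes described here encode products that pancreatic acinar cells make for digestion, and were chosen by name, with no measured value in the rule: Cpa1, Cpb1, Cela1, Cela2a, Cela3b, Ctrb1, Pnlip, Try4, Reg1 and Clps. They are 10 of the 47643 genes counted and of the 14105 genes tested, and all 10 passed the filter on low counts. RNA-seq was performed on PDAC (pancreatic ductal adenocarcinoma) cells sorted by FACS from mouse tumors. GFP+Yap+ cells of 6 KPF libraries were compared with Tm+Yap− cells of 3 KPYYF libraries, the latter from nodules that had relapsed after Yap loss. Both genotypes carried, among other alleles, Trp53 frt/+, Pdx-Flp and R26 FSF-CreER/Dual, and KPYYF mice carried Yap flox/flox in addition. All mice received a tamoxifen (TAM) diet once tumors were palpable. Flp switched on EGFP, and TAM-activated CreER exchanged EGFP for tdTomato (Tm) and, in KPYYF cells, deleted Yap. The effect of Yap loss cannot be told apart from that of genotype or of the reporter gate, since all 3 differ between the groups. The age of the mice was not given per library.

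Acinar cells fill most of the exocrine pancreas and store digestive enzymes, many of them as inactive zymogens, in granules at the apical membrane until a meal triggers secretion. Their enzyme genes are transcribed at very high levels under the acinar complex PTF1, in which PTF1A binds an E-box together with a partner, RBPJL in mature cells, at a neighboring TC box. Acinar cells that transform lose this program and take on duct-like features. Pdx1, whose regulatory sequence drives Flp here, is active in the progenitors of acinar, duct and islet cells, so the reporter marks the lineage of the pancreas and not malignant cells alone. In bulk RNA, fewer acinar cells and less acinar RNA per cell cannot be told apart.

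The members fall into 4 roles. Ctrb1 (a chymotrypsinogen), Try4 (a trypsinogen) and Cela1, Cela2a and Cela3b (chymotrypsin-like elastases) are serine proteases that cut inside proteins, and Cpa1 and Cpb1 are carboxypeptidases that trim the C-terminal end. Pnlip is pancreatic lipase, and Clps is colipase, the cofactor that holds the lipase on fat droplets in the presence of bile salts. Reg1 is a secreted lectin-like protein of the Reg family, made by acinar cells and raised in injury. The 10 genes are spread over several chromosomes. In GENCODE M21 coordinates (GRCm38), Cpa1 (6:30639218-30645363), Try4 (6:41302269-41305532) and Reg1 (6:78422711-78428667) share chromosome 6, and Cela3b (4:137420999-137430540) and Cela2a (4:141814962-141826160) share chromosome 4. Cpb1 lies at 3:20248264-20275733, Cela1 at 15:100674421-100687921, Ctrb1 at 8:111686519-111691010, Pnlip at 19:58652498-58681788 and Clps at 17:28558149-28560766. Cela2a overlaps Ctrc on the same strand and Casp9 on the other, so part of its reads could be assigned differently. Try4 belongs to a trypsinogen cluster of near-identical copies, and only uniquely aligned reads were counted.

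RefSeq promoter sequences (GRCm38.p6, 250 bases before to 50 after the start) were available for 9 of the 10 genes, all but Clps, and 3 are shown because they span the range of PTF1-type letters found. Capitals mark the E-box CANCTG and the TC box TTTCCC on either strand. Cela1 (chr15:100687871-100688170, minus strand) and Ctrb1 (chr8:111690961-111691260, minus strand) hold an E-box followed at a gap of 4 bases by a TC box. Pnlip (chr19:58670115-58670414, plus strand, at a start inside the GENCODE gene) holds neither.
Cela1: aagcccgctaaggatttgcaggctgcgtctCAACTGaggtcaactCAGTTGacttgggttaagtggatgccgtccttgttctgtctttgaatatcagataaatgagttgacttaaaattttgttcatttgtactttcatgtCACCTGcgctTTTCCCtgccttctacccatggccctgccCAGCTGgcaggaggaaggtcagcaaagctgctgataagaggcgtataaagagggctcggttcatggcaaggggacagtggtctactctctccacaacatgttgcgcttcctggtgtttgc
Ctrb1: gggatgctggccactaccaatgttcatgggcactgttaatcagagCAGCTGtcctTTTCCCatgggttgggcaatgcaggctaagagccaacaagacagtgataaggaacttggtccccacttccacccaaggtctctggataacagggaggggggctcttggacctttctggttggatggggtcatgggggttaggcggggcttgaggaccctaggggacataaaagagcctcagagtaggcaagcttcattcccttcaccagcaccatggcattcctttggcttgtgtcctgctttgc
Pnlip: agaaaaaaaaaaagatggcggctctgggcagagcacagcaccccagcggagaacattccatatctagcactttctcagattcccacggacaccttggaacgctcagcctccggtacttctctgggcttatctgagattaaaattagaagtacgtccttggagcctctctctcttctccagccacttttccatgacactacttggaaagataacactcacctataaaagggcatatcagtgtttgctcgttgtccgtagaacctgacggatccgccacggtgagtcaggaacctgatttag
The E-box was present in 8 of the 9 promoters, all but Pnlip, and in 51.5% of all 32544 promoters in the table. The TC box was present in 5 of the 9 (Cpa1, Cela1, Cela2a, Ctrb1 and Reg1) and in 25.3% of all. The joined form CANCTGNNNNTTTCCC, searched on both strands, was found in Cela1, with its first base 109 bases upstream of the start, in Ctrb1, 205 bases upstream, and in 11 of all 32544 promoters (0.0338%). The gap of 4 bases was chosen after these promoters had been read, so this share supports nothing. TATAAA stood in 5 of the 9 promoters (Cpb1, Cela1, Pnlip, Try4 and Reg1) and in 13.6% of all. A match describes the letters of this window and not a bound site.

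The libraries held between 8116539 and 9635514 reads on genes, and 3 counts corresponded to 0.291 to 0.436 CPM (read counts scaled to library size with TMM factors). Yap1 was at 41.7 to 150.5 CPM in KPF and at 0.711 to 7.10 CPM in KPYYF libraries, as the labels state. The ductal markers Krt19, Epcam and Sox9 were counted in all 9 libraries, with Krt19 at 175 to 618 CPM in KPF and 18.1 to 119 CPM in KPYYF libraries. Reads without a unique alignment made up 43.8 to 48.5% of each file in KPF and 49.2 to 53.4% in KPYYF libraries, so the groups did not overlap. KPF libraries 4504h and 4504s share a mouse number.

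Reads of the 10 digestive genes were concentrated in 2 libraries, one of each genotype. Of 232258 such reads, 71.2% came from KPF library 4504s and 19.8% from KPYYF library 4449, which together held 21.6% of all reads on genes. The other 7 libraries shared the remaining 9.04%. In 4504s the 10 genes took 1.76% of all reads on genes (95% Wilson interval 1.75 to 1.77%), and in 4449 0.566% (0.561 to 0.571%). These intervals cover counting error only. KPF library 4435 followed with 0.0892% (0.0873 to 0.0911%), and the lowest was KPYYF library 4891 with 0.00730% (0.00675 to 0.00789%). Summed over the 10 genes, the level was 18780 CPM in 4504s, 5441 CPM in 4449 and 69.1 to 878 CPM, with a median of 341 CPM, in the other 7. Library 4504s thus stood 55.0-fold and 4449 15.9-fold above that median. The mean was 3488 ± 7496 CPM (SD, n = 6) in KPF and 1861 ± 3100 CPM (SD, n = 3) in KPYYF libraries, so the spread within each genotype exceeded the difference between them. Against 4504h, which carries the same mouse number, 4504s was 40.4-fold higher.

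**Figure D1:**
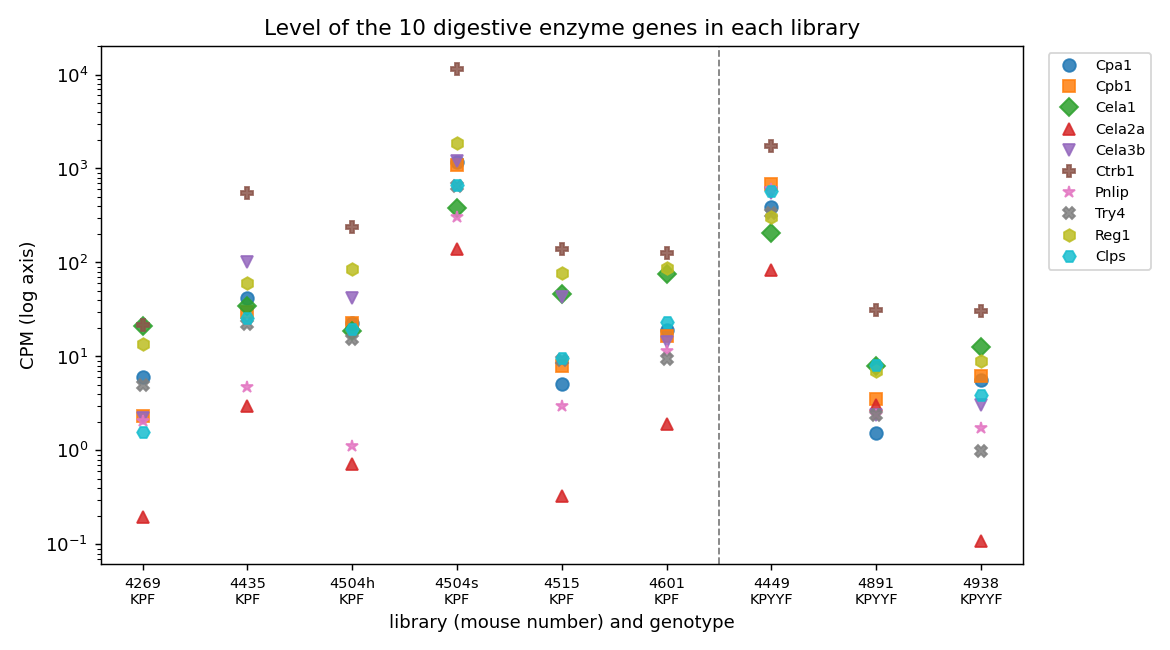
Level of each digestive enzyme gene (CPM, log axis) in the 6 KPF libraries, left of the dashed line, and the 3 KPYYF libraries, right of it; each symbol is 1 gene in 1 library. All 10 genes are highest in 4504s and 4449, with Ctrb1 at 11308 and 1715 CPM there, and 9 of the 10 are highest of all in 4504s.

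For each of the 10 genes, 4504s and 4449 were the 2 highest libraries, which held for 1.56% of all genes tested (220 genes). In 9 genes the highest library was 4504s, and in Pnlip it was 4449. The share of a gene's reads found in these 2 libraries ran from 73.0% in Cela1 to 97.2% in Pnlip, with a median of 20.0% over all genes tested. Because these libraries belong to different genotypes, the fits across all genes are also given without them, for the members and for each other acinar list.

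Among the serine proteases, Ctrb1 (ENSMUSG00000031957) was the most abundant of the 10 genes. It was at 21.4, 553, 237, 11308, 139 and 127 CPM in KPF libraries 4269, 4435, 4504h, 4504s, 4515 and 4601, and at 1715, 30.9 and 30.7 CPM in KPYYF libraries 4449, 4891 and 4938. One library of each genotype was far above the rest, and the groups overlapped. The mean was 2064 ± 4532 CPM (SD, n = 6) in KPF and 592 ± 972 CPM (SD, n = 3) in KPYYF cells, so in both groups the SD was larger than the mean. The log2 fold change of KPYYF over KPF was -1.80 (SE 2.28, Benjamini-Hochberg adjusted p = 0.773 by edgeR's quasi-likelihood test).

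Try4 (ENSMUSG00000054106), a trypsinogen gene, was at 4.95, 22.4, 15.5, 655, 9.16 and 9.45 CPM in the KPF libraries, in the same order, and at 334, 2.40 and 0.984 CPM in the KPYYF libraries. The library below 1 CPM, 4938, rests on 9 counts. Its log2 fold change was -0.09 (SE 2.14), the smallest in size of the 10 genes.

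The 3 elastase genes differed in how far 4504s stood above the rest. Cela1 (ENSMUSG00000023031) was at 21.3, 34.5, 18.4, 377, 46.7 and 75.7 CPM in KPF and at 204, 7.96 and 12.6 CPM in KPYYF libraries. It was the most even member: 4504s was 17.7-fold above the median of the 7 other libraries, against 30.6- to 195-fold for the other members. Cela1 is also transcribed outside the pancreas, unlike most pancreatic elastases. Cela3b (ENSMUSG00000023433) was at 2.23, 101, 42.3, 1202, 42.5 and 14.1 CPM in KPF and at 550, 2.40 and 3.06 CPM in KPYYF libraries. In Cela3b, KPF library 4269 lay below both KPYYF libraries other than 4449, so the groups overlapped at the low end as well. This rests on 23 counts in 4269 beside 22 in 4891 and 28 in 4938. Library 4269 also lay below both in Ctrb1, Cpb1 and Clps. Cela2a (ENSMUSG00000058579) was the least abundant, at 0.194, 2.96, 0.714, 139, 0.331 and 1.89 CPM in KPF and at 83.0, 3.05 and 0.109 CPM in KPYYF libraries. Libraries 4269, 4515 and 4938 held 2, 3 and 1 counts of Cela2a, at or under the limit of 3 counts, so no order among these libraries could be read at this depth. The log2 fold changes were -0.35 (SE 1.29) for Cela1, -0.34 (SE 2.15) for Cela3b and 0.25 (SE 2.26) for Cela2a.

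Both carboxypeptidase genes followed the same pattern. Cpa1 (ENSMUSG00000054446) was at 6.11, 42.2, 22.4, 1171, 5.08 and 19.0 CPM in KPF and at 393, 1.53 and 5.57 CPM in KPYYF libraries. Cpb1 (ENSMUSG00000011463) was at 2.33, 29.6, 22.5, 1081, 7.95 and 16.4 CPM in KPF and at 679, 3.49 and 6.12 CPM in KPYYF libraries. The direction of the group difference was not the same in the 2 genes: the log2 fold change was -0.66 (SE 2.24, adjusted p = 0.929) for Cpa1 and 0.25 (SE 2.20, adjusted p = 0.976) for Cpb1 in edgeR's quasi-likelihood test. Each difference was smaller than its SE.

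The lipase and its cofactor were the members for which 4449 came closest to 4504s or passed it. Pnlip (ENSMUSG00000046008) was at 2.04, 4.70, 1.12, 301, 2.98 and 11.3 CPM in KPF and at 610, 2.40 and 1.75 CPM in KPYYF libraries. Clps (ENSMUSG00000024225) was at 1.55, 26.0, 19.6, 676, 9.60 and 23.1 CPM in KPF and at 571, 8.07 and 3.93 CPM in KPYYF libraries. Pnlip was the 1 member with a higher level in 4449 than in 4504s, whereas Clps was nearly level between them. Pnlip averaged 53.9 ± 121 CPM (SD, n = 6) in KPF and 205 ± 351 CPM (SD, n = 3) in KPYYF cells, a log2 fold change of 1.93 (SE 2.19, adjusted p = 0.740, edgeR). For Clps the log2 fold change was 0.63 (SE 2.02).

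Reg1 (ENSMUSG00000059654), the gene of the lectin-like protein, was at 13.6, 61.1, 84.5, 1869, 77.9 and 87.7 CPM in KPF and at 302, 6.98 and 8.85 CPM in KPYYF libraries. Among the 7 libraries other than 4504s and 4449, each KPF library was above both KPYYF libraries. Its log2 fold change was -1.79 (SE 1.94), and its adjusted p of 0.724 in edgeR's test was the lowest of the 10 genes.

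No difference between GFP+Yap+ and Tm+Yap− cells passed the threshold in any of the 10 genes. edgeR's quasi-likelihood test called 0 of 10 at an adjusted p under 0.05, where 1.1% of all genes tested were called, 0.794% lower and 0.305% higher in KPYYF. At an unadjusted p under 0.05 it also gave 0 of 10, with 16.1% of all genes, and the smallest unadjusted p was 0.383. With the cutoff of the study's methods, a change of over 2-fold at an unadjusted p under 0.05, applied here to edgeR's p values instead of those of DESeq2, 0 of 10 passed, with 13.4% of all genes, 9.2% lower and 4.2% higher. Limma-voom called 0 of 10 as well. DESeq2 returned a p for 1 of the 10 only, Cela1 (unadjusted p = 0.789), and none for the other 9, so it tested nothing in those genes. The groups overlapped in all 10 genes, where 5.18% of all genes were lower and 3.92% higher in KPYYF without overlap. Log2 fold changes were below 0 in 6 genes and above 0 in 4, with a median of -0.21 beside -0.07 over all genes tested. Two-sided exact permutation tests on log2 CPM of single genes gave p values from 0.333 to 1, and the smallest value this design allows is 0.0238. With SEs of 1.29 to 2.28 on the log2 scale, a difference of several fold in either direction could not be told from the spread between libraries.

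The direction of the difference depended on the 2 high libraries. Without 4504s all 10 genes were higher in KPYYF, with log2 fold changes of 0.70 (Reg1) to 5.54 (Pnlip) and a median of 2.99. Without 4449 all 10 were lower, from -6.41 (Cela3b) to -3.22 (Cela1), with a median of -5.43. Neither fit called any of the 10 genes at an adjusted p under 0.05 in edgeR, where 0.355% and 1.97% of all genes were called. At an unadjusted p under 0.05 they gave 4 and 1 of the 10, beside 14.3% and 17.2% of all genes.

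With both libraries left out, 5 KPF and 2 KPYYF libraries remained, and 9 of the genes could be tested, since Cela2a no longer passed the filter on low counts. All 9 log2 fold changes were below 0, from -3.88 (SE 1.32, Cela3b) to -1.09 (SE 1.39, Pnlip), with a median of -2.41. The lowest adjusted p was that of Reg1, 0.0749 in edgeR's test, at a log2 fold change of -3.03 (SE 0.72). At an unadjusted p under 0.05, 6 of the 9 passed, beside 15.4% of all genes, and at an adjusted p under 0.05 0 passed, beside 1.01%. In 3 of the 9, Cela1, Try4 and Reg1, both KPYYF libraries were below all 5 KPF libraries, beside 11.3% of all genes that were lower and 9.74% that were higher without overlap. These libraries were left out after their values were seen.

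**Figure D2:**
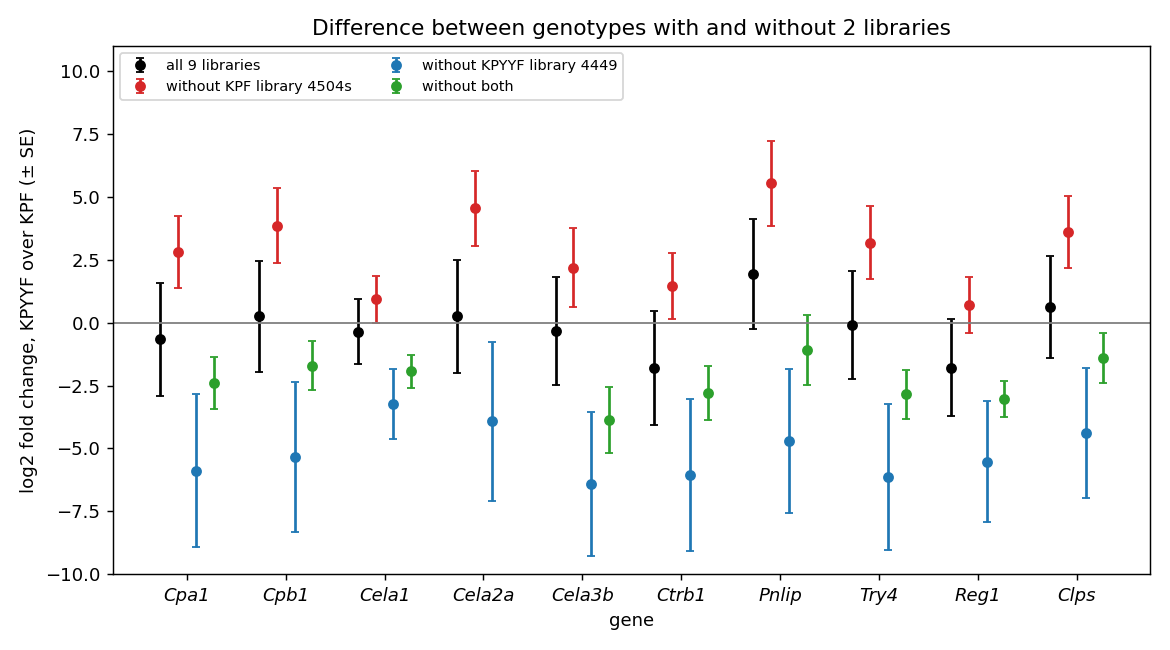
Log2 fold change (KPYYF over KPF, ± SE) of each digestive enzyme gene from edgeR with all 9 libraries (black), without KPF library 4504s (red), without KPYYF library 4449 (blue) and without both (green; Cela2a not tested). The median moves from -0.21 to 2.99, -5.43 and -2.41.

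The ratios among the 10 genes varied between libraries, but less than their levels. The SD over the 9 libraries of log2 CPM was 1.83 (Cela1) to 3.28 (Cela3b), with a median of 3.04. The SD of a gene's log2 ratio to the mean of the other 9 genes was 0.61 (Cpb1) to 1.44 (Cela1), with a median of 0.95. Over the 9 libraries, the SD of the ratio was below that of the level in each of the 10 genes. Counting error alone gives an SD of 0.06 to 0.49, and libraries of separate tumors would vary beyond it, so the size of the ratio's SD is a description and no test of fixed ratios. Among the 7 libraries other than 4504s and 4449, the median SD was 1.46 for levels and 0.89 for ratios, so the gap between them was narrower there. In these 7 libraries the SD of the ratio was above that of the level in Cela2a and Pnlip, and below it in the other members.

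**Figure D3:**
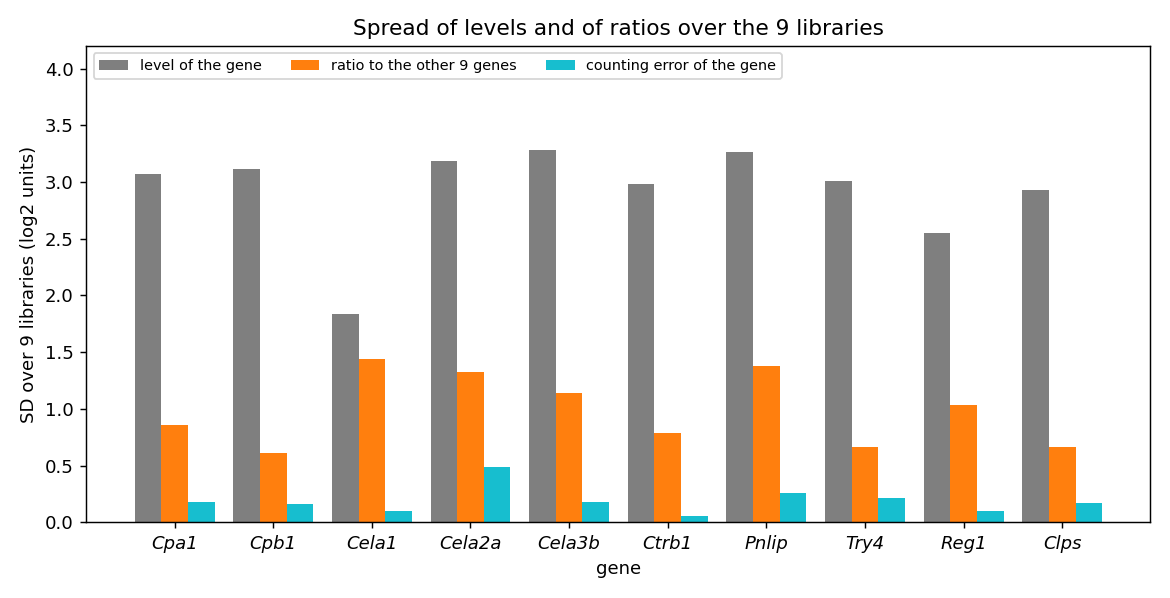
SD over the 9 libraries, in log2 units, of each gene's level (gray), of its ratio to the other 9 digestive enzyme genes (orange) and of its counting error (cyan). The ratio bar is below the level bar in all 10 genes, with medians of 0.95 and 3.04 for ratio and level.

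Some pairs held together more closely than others. Cpb1 and Clps kept the steadiest ratio of the 45 pairs, with an SD of 0.60 on the log2 scale, and Cela3b and Pnlip the least steady, with 2.05. The count of Ctrb1 over that of Pnlip was 2.81 in 4449, 37.6 in 4504s and 212 in 4504h, where 2329 reads of Ctrb1 stood beside 11 of Pnlip. For the protease pair Cpa1 and Cpb1 the ratio stayed between 0.438 (4891) and 2.63 (4269), with 1.08 in 4504s and 0.579 in 4449. Across the 7 libraries outside 4504s and 4449, Pearson's r between log2 CPM of 2 members had a median of 0.684 and ranged from 0.0929 to 0.977. Both members of a pair are read in the same libraries, so these values are a description. Over all 9 libraries, with 4504s and 4449 included, the median was higher, at 0.918.

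The make-up of the digestive RNA showed which genes moved against the others. Ctrb1 was the largest share in all 9 libraries, from 28.3% of the reads of the 10 genes in 4269 (Wilson interval 25.3 to 31.6%) to 63.0% in 4435 (62.0 to 64.0%). It took 60.2% in 4504s (60.0 to 60.4%) but 31.5% in 4449 (31.1 to 31.9%). Pnlip took 11.2% in 4449 (10.9 to 11.5%), 1.60% in 4504s (1.54 to 1.67%) and 0.241% in 4504h (0.135 to 0.432%). The shares of Cpb1 and Clps in 4449, 12.5% and 10.5%, were also above those in 4504s, 5.76% and 3.60%. Cela1 took 28.2% in 4269 (25.1 to 31.4%), about level with Ctrb1 there, and 2.01% in 4504s (1.94 to 2.08%). Reg1 took 22.8% in 4515 (21.4 to 24.3%) and 5.55% in 4449 (5.34 to 5.76%), its lowest share.

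**Figure D4:**
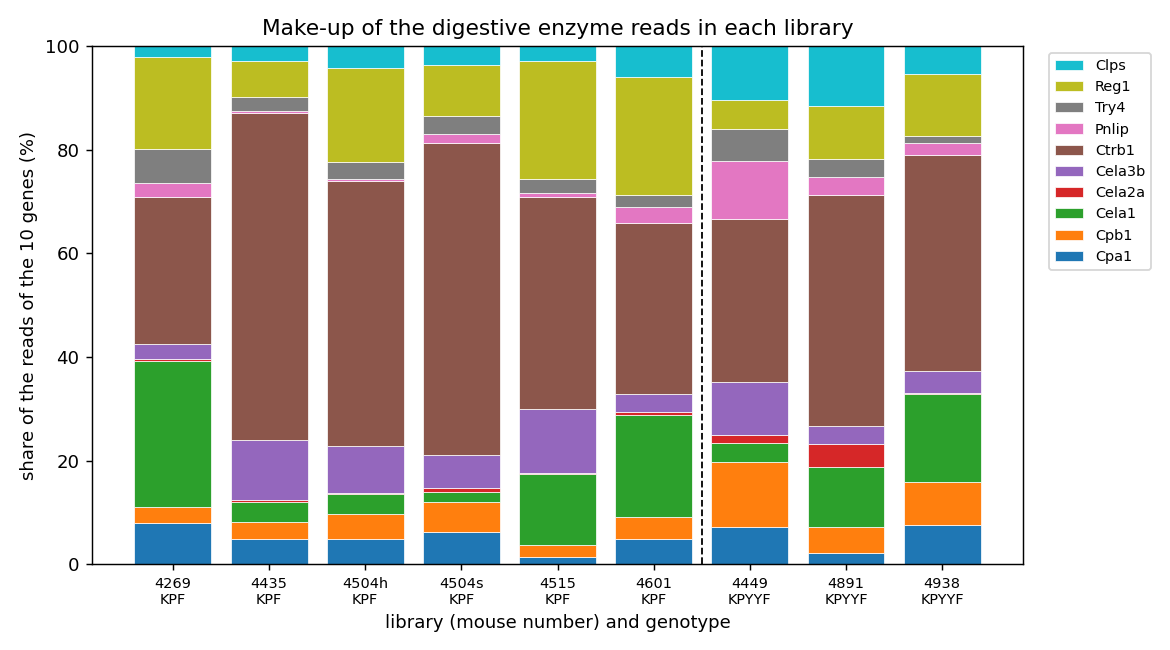
Share of each gene (%) in the reads of the 10 digestive enzyme genes, stacked to 100% for each library, with KPF left and KPYYF right of the dashed line. Ctrb1 (brown) takes 60.2% in 4504s and 31.5% in 4449, and Pnlip (pink) 1.60% and 11.2%.

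Set directly against each other, 4504s was higher than 4449 in 9 of the 10 genes, by very unequal factors. As 1 library stood on each side, the intervals are exact 95% counting intervals and compare these libraries, not the genotypes. The factor was 6.59 for Ctrb1 (6.48 to 6.71) and 6.19 for Reg1 (5.94 to 6.46), and the next was 2.98 for Cpa1 (2.86 to 3.10). Cela3b followed with 2.18, Try4 with 1.96, Cela1 with 1.85, Cela2a with 1.68 and Cpb1 with 1.59. For Clps it was 1.18 (1.14 to 1.23) and for Pnlip 0.494 (0.471 to 0.518). The 3 elastase genes lay close together in this pair of libraries, but over all 9 libraries their ratios were among the less steady. The SDs on the log2 scale were 2.03 for Cela1 and Cela2a, 1.96 for Cela2a and Cela3b and 1.92 for Cela1 and Cela3b. Cela2a had 2, 3 and 1 counts in 4269, 4515 and 4938, so the SDs with Cela2a rest partly on counts at or under the limit of 3.

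Most other genes of acinar secretory products were also highest in 4504s and 4449, and most genes of the secretory machinery were not. Of 10 other pancreatic proteases, 8 were tested, 6 with log2 fold changes below 0 and 2 above, and 0 were called in edgeR. All 8 had 4504s and 4449 as their highest libraries, which held 91.6% of the reads. Prss2, an abundant trypsinogen, was at 5852 CPM in 4504s and 2269 CPM in 4449, a factor of 2.58, and Try5, another trypsinogen, at 4212 and 464 CPM, a factor of 9.07. Klk1, tissue kallikrein, had a factor of 4.00 and Ctrl, a chymotrypsin-like protease, 1.11. Cela3a, a relative of Cela3b, was listed at 0 in all libraries.

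Of 12 other lipase, amylase and ribonuclease genes, 7 were tested, 5 below and 2 above 0, with 0 called in edgeR and 94.0% of reads in the same 2 libraries. Pnliprp1, a lipase-related protein, was 4.88-fold higher in 4504s than in 4449, in contrast to Pnlip. Cel, carboxyl ester lipase, was 1.22-fold, Rnase1, pancreatic ribonuclease, 2.70-fold, and Pnliprp2 2.18-fold higher. Of the amylase genes, Amy2b had 522 counts and, like Pnlip, was higher in 4449 (35.5 CPM) than in 4504s (24.0 CPM), a factor of 0.675 (0.563 to 0.807). Amy1 had 219 counts, at 13.5 CPM in 4504s and 6.28 CPM in 4449. The 5 genes Amy2a1 to Amy2a5, near-identical copies, were listed at 0 in all libraries.

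Of the zymogen granule proteins and inhibitors, all 6 were tested, 4 below and 2 above 0, with 0 called in edgeR. Gp2, the main granule membrane glycoprotein, Zg16, a granule lectin, and Spink1, the trypsin inhibitor packed with trypsinogen, had factors of 3.12, 4.15 and 8.50 between 4504s and 4449. Sycn, syncollin, was 0.909. With all 9 libraries, the 6 other Reg genes had log2 fold changes below 0, with a median of -2.19 and 0 called. Reg3b, an antimicrobial lectin, was 16.1-fold, Reg2 4.24-fold, Reg3a 5.69-fold and Reg3g 12.3-fold higher in 4504s than in 4449. Of these 6 Reg genes, 4 had 4504s and 4449 as their highest libraries. Reg4 was highest in 4515 and at 0 counts in 4449. Reg3g was lower in 4449 (11.4 CPM) than in 4504h (13.7 CPM) and 4435 (13.3 CPM). Adding all secretory lists to the 10 members, these RNAs took 3.95% of reads on genes in 4504s and 1.24% in 4449.

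Of the 4 acinar transcription factors, Rbpjl and Nr5a2 differed between the 2 high libraries far more than the enzymes did, and Ptf1a did so by about the factor of the summed enzymes, 3.45. Ptf1a, the PTF1 subunit that binds the E-box, had 47 counts in 4504s and 13 in 4449, a factor of 3.47 (1.85 to 6.99). Rbpjl, the acinar PTF1 subunit, had 272 counts in 4504s and 1 in 4449, a ratio of 261 with a counting interval of 46.4 to 10343. Its next highest libraries were 4938, with 47 counts, and 4504h, with 12. Nr5a2, a nuclear receptor that acts with PTF1 on enzyme genes, had 445 counts and 1 count, a ratio of 427 with an interval of 76.2 to 16897. It also had 40 counts in 4515 and 33 in 4601. Bhlha15 (Mist1), which scales up secretory capacity, had 3 counts in 4504s and 0 in 4449, and its highest count was 4, in 4601. Of this list 2 genes were tested and 0 were called in edgeR. Nr5a2 had a log2 fold change of -7.61 (SE 2.81, adjusted p = 0.207) in edgeR and of -7.96 (SE 2.75, adjusted p = 0.0461) in DESeq2. Neither gene could be tested without 4504s.

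Among 9 genes of acinar stimulation and secretion, Cckar, the receptor for the gut hormone cholecystokinin, followed Rbpjl and Nr5a2. Cckar had 4044 counts in 4504s and 9 in 4449, a factor of 431 (227 to 943). Pdia2, the pancreas-specific protein disulfide isomerase, had a factor of 13.0 (8.28 to 21.7). Aqp8 and Tmed6 went the other way, and the other genes of this list were higher in 4504s than in 4449. Aqp8 had 0 counts in 4504s and 132 in 4449, its highest library, and Tmed6 had a factor of 0.525 (0.367 to 0.744). Rab3d, a GTPase of secretory granules, did not peak with the enzymes: it was highest in 4435, and only 19.4% of its reads were in 4504s and 4449. It was the 1 gene of these lists to be called, lower in KPYYF with a log2 fold change of -1.84 (SE 0.39, adjusted p = 0.0422, edgeR), but no gene of these lists was called when 4269, 4435, 4504s, 4515, 4449, 4891 or 4938 was left out. Rab27b and Gatm, with log2 fold changes of -2.07 (SE 0.65) and -2.13 (SE 0.73), did not pass the threshold in edgeR with all libraries.

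Without the high libraries, the directions of the secretory lists turned as those of the members did. Without 4504s, all 6 tested proteases, all 7 lipase, amylase and ribonuclease genes and all 6 granule genes had log2 fold changes above 0, with medians of 2.74, 2.63 and 2.57, and the Reg genes were 3 below and 3 above. Without 4449, all 8, 7, 6 and 6 genes of these lists were below 0, with medians of -5.93, -5.83, -4.27 and -5.66. Without both, 5 of 5 proteases (median -2.96), 4 of 4 lipase, amylase and ribonuclease genes (-2.60), 3 of 4 granule genes (-0.89) and 5 of 5 Reg genes (-2.94) were below 0. The stimulation and secretion genes kept medians of -1.49, -2.32 and -1.81 in these 3 fits. No gene of these lists was called in any of these fits.

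**Figure D5:**
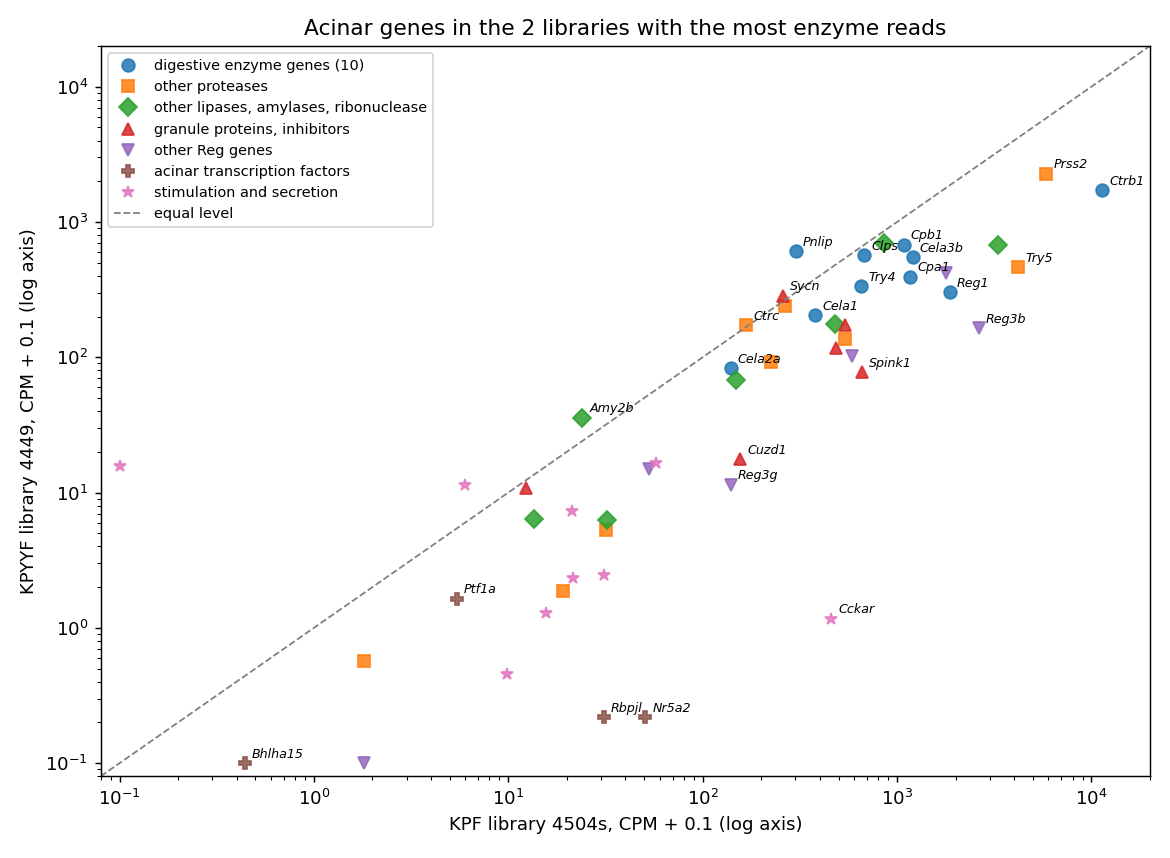
Level of acinar genes in KPF library 4504s (horizontal) and KPYYF library 4449 (vertical), CPM + 0.1 on log axes, with symbols for the gene lists and a dashed line at equal level. Most enzymes lie below the line, Pnlip lies above it, and Rbpjl, Nr5a2 and Cckar, with 1, 1 and 9 counts in 4449, lie far below.

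Markers of other cells were summed beside the digestive genes. Islet hormone and granule markers, led by Pyy and Chgb, reached 174 CPM in 4504s, above the 2.85 to 146 CPM of the 7 lower libraries, and 21.7 CPM in 4449, where 4 of the 9 (Gcg, Sst, Iapp and Chgb) were at 0. Ins2, by contrast, was highest of all libraries in 4449, at 10.9 CPM beside 8.97 CPM in 4504s, and Ppy was at 9.24 and 8.75 CPM. In 4504s none of the 9 was at 0, and 4 of 9 were at their highest. Fibroblast markers, led by Col1a1 and Col3a1, were at 5372 CPM in 4504s, 1329 CPM in 4449 and 405 to 3864 CPM elsewhere, and immune markers, led by Lyz2 and Ptprc, at 1193, 661 and 320 to 6995 CPM, with Cd3e and Cd79a at 0 in both. Ductal markers, led by Spp1 and Krt7, were at 4001 CPM in 4504s and at 9392 CPM in 4449, of which 8545 CPM were Spp1, against 1119 to 6023 CPM elsewhere. Endothelial markers (led by Kdr and Pecam1) and erythroid markers (led by Hbb-bs and Hba-a1) in both libraries were within the range of the others, at 50.1 and 108 CPM in 4504s and at 14.8 and 23.2 CPM in 4449. The part of other cells, or of RNA released from them, in the levels of the digestive genes was not tested.

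Outside the acinar lists, the genes most like the mean of the 10 members over the 9 libraries had Pearson's r of 0.862 to 0.973 among 14057 candidates. How far the likeness of these genes holds without 4504s and 4449 was not tested. The first, 2210010C04Rik (6:41030268-41035509, GRCm38), encodes a trypsinogen and was at 1245 CPM in 4504s and 885 CPM in 4449. Gm2663 lies next to it, at 248 and 12.4 CPM. Aqp12, an aquaporin of acinar cells, was counted only in these 2 libraries, with 46 and 105 counts. Hspa12a (19:58795750-58943654), at 6.82 and 4.86 CPM, lies on the same chromosome as Pnlip, downstream of it. Eef1akmt3, Exoc4, Ly6g, Gdf15, Urah and Rhbdl3 completed the first 10.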

How the data were processed

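RNA of FACS-sorted mouse PDAC cells was sequenced as 3′ end libraries (Lexogen QuantSeq Forward, per the labels). The authors deposited raw read counts per Ensembl gene, 1 file for each library, without normalization. STAR, HTSeq and mm10 are named in the submitters' processing notes, and their versions, the annotation and the strand setting were not given in the sources used here. The methods text describes BeadChip hybridization, while the files hold whole-number counts with HTSeq summary lines. Summary lines were left out. As each transcript gives 1 tag at its 3′ end, CPM was compared between genes without division by length.

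Of 47643 genes, 47224 were matched to a symbol in GENCODE M21. Genes with at least 100 counts in all were tested (14105) with edgeR 4.0.16 in R 4.3.3: TMM factors, robust quasi-likelihood fit, no covariates, Benjamini-Hochberg adjustment over all genes tested and a threshold of 0.05. The common biological coefficient of variation was 0.825. Log2 CPM used a prior count of 2. Exact permutation tests covered 84 regroupings of the 9 libraries. The labels do not say that replicates came from separate mice, apart from the mouse numbers in their names, so p values measure the spread between these libraries.

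The 10 members and all lists were chosen with earlier results of these data known. All members are named, as are the up to 4 most abundant genes of each acinar list, called genes of these lists and the 10 genes most alike by Pearson's r. Of each marker list the 2 most abundant genes are named. Krt19, Epcam, Sox9, Pdia2, Aqp8, Tmed6, Cela3a, Reg4, the Amy2a genes and markers at 0 were named after their values were seen. Alternatives were DESeq2 1.42.0, limma 3.58.1 (voom with sample weights), RLE and upper quartile factors, other filters, libraries 4504h and 4504s summed, library sizes without acinar genes, and each library left out. Leaving out 4504s and 4449 together was added after the data were seen. The fit was tested on simulated counts. Promoters were taken from a RefSeq table (GRCm38.p6). An allele that both genotypes share is not reported here.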

Additional observations from a re-analysis of the deposited data

Results flagged for a closer look

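In the 6 KPF libraries, 4504s stood apart from the other 5 in all 10 digestive enzyme genes and in their sum. The distance from 4504s to the next library, divided by the whole range, was 0.840 to 0.980, above Dixon's 95% critical value of 0.625. The values of 4504s were 1171 CPM for Cpa1, 1081 CPM for Cpb1, 377 CPM for Cela1, 139 CPM for Cela2a, 1202 CPM for Cela3b, 11308 CPM for Ctrb1, 301 CPM for Pnlip, 655 CPM for Try4, 1869 CPM for Reg1 and 676 CPM for Clps, and 18780 CPM for the sum. Chance alone marks about 1 in 20 groups if values are normally distributed, which was not shown for CPM, so this rate may not hold here. The 10 genes share the same libraries, so these are not separate observations. On log2 CPM the same measure was 0.399 to 0.695 and passed the critical value in 2 of the 10 genes, Cela2a and Try4. The KPYYF group, with 3 libraries, is too small for this measure.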

How the results depend on the processing

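Across 179 values of the 10 genes under 18 alternatives, 145 kept and 34 changed their direction. Of the 170 that had an adjusted p, 0 passed 0.05 (lowest 0.0749), and the other 9 are DESeq2 values without a p. DESeq2, RLE and upper quartile factors, both other filters and library sizes without acinar genes changed none. With 4504h and 4504s summed, the log2 fold change turned to 0.075 in Cpa1, 0.038 in Cela1, 0.31 in Cela3b and 0.64 in Try4. With limma-voom weights it turned to -2.50 in Cpb1, -1.85 in Cela2a, -1.55 in Pnlip and -2.15 in Clps, with a median over the 10 genes of -2.91. Without 4504s and 4449 it turned to -1.71 in Cpb1, -1.09 in Pnlip and -1.41 in Clps. Leaving out each library in turn moved Cpa1 from -5.89 to 2.81, Cpb1 from -5.33 to 3.85, Cela1 from -3.22 to 0.93, Cela2a from -3.92 to 4.55, Cela3b from -6.41 to 2.18, Ctrb1 from -6.07 to 1.45, Pnlip from -4.69 to 5.54, Try4 from -6.13 to 3.18, Reg1 from -5.53 to 0.70 and Clps from -4.39 to 3.60. The low ends are without 4449 and the high ends without 4504s, and the same holds for the median of the 10 genes (-5.43 to 2.99), the median of the other acinar lists (-5.13 to 1.74) and the log2 ratio of the summed levels, -0.91 with all libraries (-5.61 to 2.12). The number of genes called in the other acinar lists, 1 with all libraries, was 0 to 1 when single libraries were left out, 4 with DESeq2 (Nr5a2, Rab3d, Rab27b and Gatm), 0 with limma-voom and 0 without both libraries. DESeq2 returned no p for most genes of these lists, among them every protease tested, so the 4 are not out of all list genes. The share of all genes that DESeq2 called is not given here, so the 4 cannot be set beside a general rate. Over all 14105 genes tested, 357 had no p in DESeq2. The causes were not tested. No paired analysis was possible because the labels give no replicate numbers shared by the genotypes.

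Precision was limited by 3 KPYYF libraries and by the spread between libraries more than by depth. Cela2a had the largest counting error. Trypsinogen and amylase copies are uncertain, since reads without a unique alignment were not counted on genes.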
